A study of Oncorhynchus mykiss with 12 samples.

Results

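Gene expression in the dorsal skin of yellow mutant rainbow trout (Oncorhynchus mykiss) was compared with that of wild-type trout by RNA-Seq. The genes compared were all entries of the expression table with at least 0.5 FPKM (fragments per kilobase of transcript, scaled to the mapped fragments of a library) in at least 3 of the 6 libraries, which left 27268 of 42290 entries. The comparison holds 3 samples of yellow mutant skin and 3 samples of wild-type skin, which were frozen in liquid nitrogen directly after collection. The series text gives both as first-generation offspring of wild-type males and yellow mutant females, so fish of both colours had a parent of each form. No age, sex or treatment is given, and nothing in the labels says whether a sample was 1 animal or several pooled. Each p-value below therefore measures only the spread between these samples, which may be technical.

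Fish skin owes its colour to pigment cells of the dermis that come from the neural crest. Melanophores make black melanin in melanosomes, xanthophores hold yellow pteridines and carotenoids, and iridophores reflect light from crystals of purine. Pteridine synthesis starts from GTP, melanin synthesis from tyrosine, and melanocortin peptides act on pigment cells through G protein-coupled receptors. The trout genome also went through a salmonid-specific duplication, so many genes have near-identical copies. How reads shared between copies were assigned is not stated, and the value of a single copy is uncertain to that extent.

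The libraries held 34837 to 35705 entries above 0 but differed in depth. The depth relative to wild-type replicate 1, read from the steps between low values, was 1.01, 0.582 and 0.810 in yellow mutant replicates 1, 2 and 3, against 0.942 and 0.903 in wild-type replicates 2 and 3. The absolute depth is unknown. Skin markers were present in all 6 libraries, with keratinocyte markers summing to 2014 to 2503 FPKM in yellow mutant skin and 1677 to 2000 FPKM in wild-type skin.

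The wild-type replicate 1 library stood apart. It held 121 entries with at least 5 FPKM that were over 5 times as high as in every other library, while the other libraries held 3 to 13 such entries each. Many of these entries encode plasma proteins that the liver makes. The 42 entries of a list of such proteins, chosen after the values were seen, summed to 94.7, 143 and 103 FPKM in yellow mutant skin, against 1524, 118.3 and 123.9 FPKM in wild-type skin. Albumin (alb1, gene 100499622) was at 377 FPKM in wild-type replicate 1 and at 23.7 to 34.9 FPKM in the other 5 libraries. Its values are given beside the lists that moved most with it.

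Few genes passed the test between the genotypes. Of 27268 genes tested, 9 rose in yellow mutant skin, or 0.033% of those tested, and 0 fell (limma on log2(FPKM + 1), two-sided, Benjamini-Hochberg adjusted over all genes tested, threshold 0.05). At an unadjusted p under 0.05 there were 930 higher genes (3.41%) and 707 lower genes (2.59%). In 1656 genes (6.07%) every yellow mutant library was above every wild-type library, and in 1342 genes (4.92%) every yellow mutant library was below. Across all genes tested the log2 differences were small, with a median of 0.014, 94.1% of genes within 0.5 and 53.0% of genes higher. Beyond 1 on the log2 scale lay 133 higher and 147 lower genes.

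**Figure D1:**
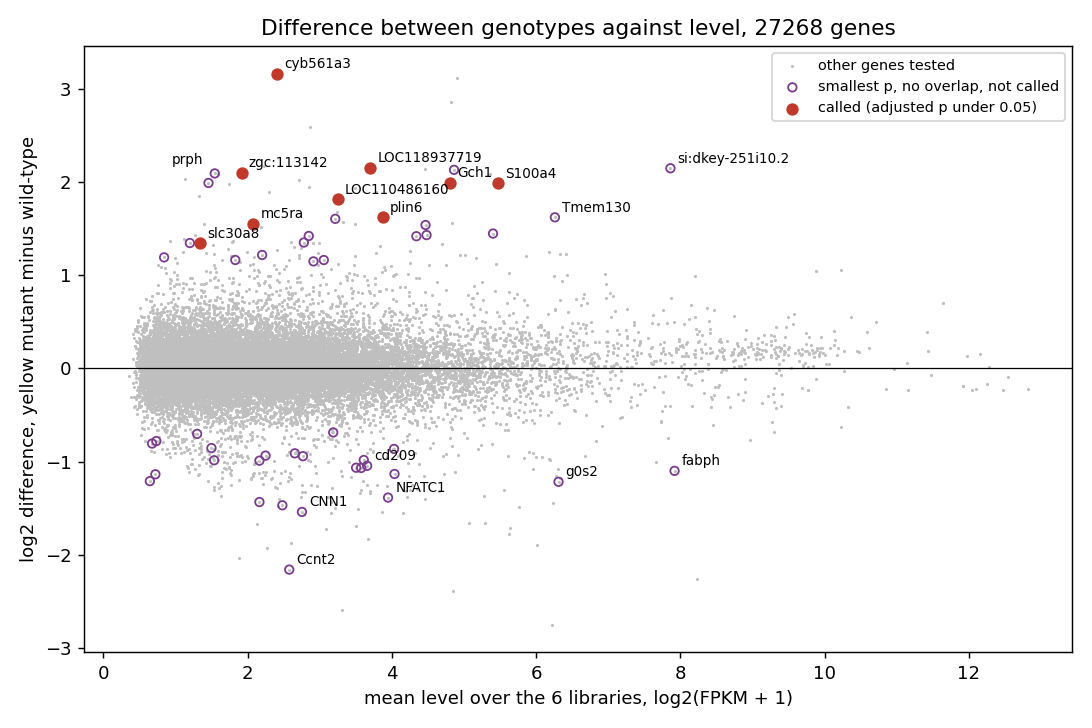
The log2 difference between yellow mutant and wild-type skin (y axis, positive means higher in yellow mutant skin) is plotted against the mean level over the 6 libraries (x axis, log2(FPKM + 1)) for 27268 genes. The 9 genes called are filled circles and all lie above 0. Open circles are genes that did not pass, with the smallest p in each direction among those with no overlap and an informative name. NFATC1, Ccnt2, g0s2 and fabph are among the lower ones.

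The genes that rose include the entry enzyme of pteridine synthesis and a melanocortin receptor. Gch1 (gene 110502330), GTP cyclohydrolase 1, which turns GTP into the first pteridine, had 50.2, 49.1 and 66.2 FPKM in yellow mutant skin, against 12.5, 12.9 and 13.6 FPKM in wild-type skin. The yellow mutant libraries were 4.24 times as high on average and did not overlap with the wild-type libraries (log2 difference 1.99, standard error 0.17, adjusted p = 0.0188). mc5ra (gene 110496762), a melanocortin receptor, had 7.25, 5.74 and 5.82 FPKM in yellow mutant skin, against 1.36, 1.63 and 1.43 FPKM in wild-type skin. The lowest yellow mutant library was thus well above the highest wild-type library (log2 difference 1.55, standard error 0.14, adjusted p = 0.0188).

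Other genes that rose encode proteins of calcium binding, electron transfer, lipid droplets and zinc transport. S100a4 (gene 110517409), whose product name is ictacalcin, a calcium-binding protein of the S100 family, had 77.1, 91.4 and 93.7 FPKM in yellow mutant skin, against 22.2, 20.9 and 20.6 FPKM in wild-type skin. The wild-type libraries agreed closely, and the groups lay far apart (log2 difference 1.99, standard error 0.16, adjusted p = 0.0188). cyb561a3 (gene 110522835), a cytochrome b that takes electrons from ascorbate, had 18.1, 8.93 and 19.9 FPKM in yellow mutant skin, against 0.466, 0.629 and 1.32 FPKM in wild-type skin. It had the widest difference of the 9 genes, 19.5 times by the means, and the widest spread, with yellow mutant replicate 2 lowest in its group (log2 difference 3.16, standard error 0.31, adjusted p = 0.0323). plin6 (gene 110486293), perilipin 6, a coat protein of lipid droplets, had 20.7, 26.5 and 27.5 FPKM in yellow mutant skin, against 6.79, 7.89 and 7.40 FPKM in wild-type skin. slc30a8 (gene 110496805), a zinc transporter, had 2.95, 2.92 and 3.25 FPKM in yellow mutant skin, against 0.616, 0.503 and 0.653 FPKM in wild-type skin. Neither gene overlapped between genotypes (log2 differences 1.62 and 1.34, adjusted p = 0.0286 and 0.0255).

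The remaining genes that rose have no characterised product. LOC118937719 had 28.3, 20.9 and 30.9 FPKM in yellow mutant skin, against 5.58, 5.12 and 4.79 FPKM in wild-type skin (adjusted p = 0.0188). LOC110486160 had 14.7, 16.0 and 20.1 FPKM in yellow mutant skin, against 4.18, 4.24 and 3.79 FPKM in wild-type skin (adjusted p = 0.0188). zgc:113142 (gene 110498068) had 7.48, 5.63 and 7.46 FPKM in yellow mutant skin, against 0.445, 1.39 and 0.752 FPKM in wild-type skin (adjusted p = 0.0286). All 3 were higher in every yellow mutant library than in any wild-type library. The number of calls depended on single libraries: it was 10 higher and 2 lower without yellow mutant replicate 1, 10 higher and 4 lower without yellow mutant replicate 2, 1 higher and 0 lower without wild-type replicate 2, and 0 in both directions without yellow mutant replicate 3, wild-type replicate 1 or wild-type replicate 3. Of the 10 higher genes without yellow mutant replicate 1, and likewise of the 10 without yellow mutant replicate 2, 6 are among the 9, and the 1 gene without wild-type replicate 2 is not. The count was also 0 in both directions with relative depth as a covariate and with the replicate number as a block. The differences themselves moved little, from 1.86 to 2.07 for Gch1, 1.93 to 2.07 for S100a4 and 2.96 to 3.50 for cyb561a3 on the log2 scale when 1 library was left out.

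**Figure D2:**
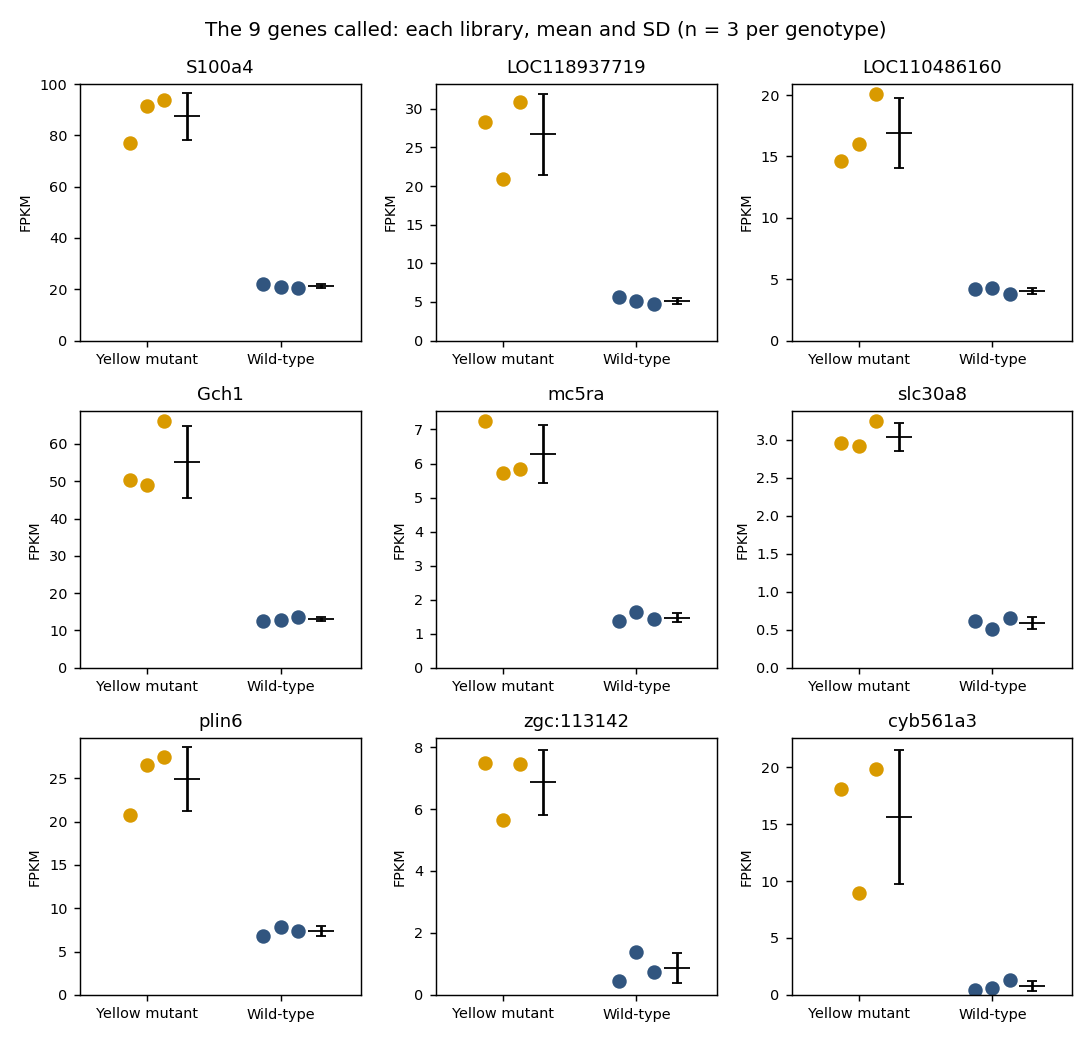
Each panel shows the FPKM of a gene that rose in yellow mutant skin (y axis, from 0), with a dot for each library and the mean and SD of 3 libraries beside the dots, yellow mutant on the left and wild-type on the right. In all 9 panels the yellow mutant dots lie above the wild-type dots, and the wild-type dots of Gch1 sit between 12.5 and 13.6 FPKM.

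The copies of these genes did not all move with them. Of 3 tested entries for GTP cyclohydrolase 1, only gene 110502330 was called: gene 100136794 averaged 1.97 FPKM in yellow mutant skin and 2.77 FPKM in wild-type skin, and gene 110497538 averaged 2.33 FPKM in yellow mutant skin and 2.33 FPKM in wild-type skin. The second cyb561a3 entry (gene 110536279) averaged 7.78 FPKM in yellow mutant skin and 6.58 FPKM in wild-type skin, and its libraries overlapped. The second slc30a8 entry (gene 110488409) had 5.09, 3.19 and 5.57 FPKM in yellow mutant skin, against 2.64, 2.87 and 2.22 FPKM in wild-type skin, with no overlap (log2 difference 0.63, unadjusted p = 0.0111). The ictacalcin copies were all higher on average, and the most abundant (gene 110520890) had 3107, 2810 and 3554 FPKM in yellow mutant skin, against 2212, 2326 and 2692 FPKM in wild-type skin. That copy did not overlap between genotypes either, although its log2 difference of 0.39 did not pass (unadjusted p = 0.071).

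The largest adjusted p among the genes called was 0.0323 and the smallest among the others 0.0513. Tmem130 (gene 110503068), a transmembrane protein, had 122.9, 150 and 129 FPKM in yellow mutant skin, against 37.2, 43.7 and 48.0 FPKM in wild-type skin (adjusted p = 0.0513). Its neighbour in the RefSeq gene order, tmem130 (gene 110503069), had 8.61, 15.5 and 9.91 FPKM in yellow mutant skin, against 2.64, 3.75 and 5.04 FPKM in wild-type skin (adjusted p = 0.261). Both copies were higher in every yellow mutant library, and neither passed.

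Enzymes of pteridine, folate and purine metabolism stood beside them. pts (gene 110498891), the enzyme after Gch1 in pteridine synthesis, had 7.93, 12.1 and 13 FPKM in yellow mutant skin, against 2.83, 3.47 and 3.98 FPKM in wild-type skin (adjusted p = 0.102). zgc:153031 (gene 110522864), named dihydrofolate reductase, which reduces dihydrofolate, had 13, 15.5 and 17.3 FPKM in yellow mutant skin, against 3.26, 4.08 and 5.98 FPKM in wild-type skin (adjusted p = 0.0791). uraha (gene 110506594), which acts in urate breakdown, had 67.4, 78.5 and 61.5 FPKM in yellow mutant skin, against 23.8, 26.7 and 23.5 FPKM in wild-type skin (adjusted p = 0.059). None of the 3 overlapped between genotypes, which the rule for choosing them required. The dhfr copy (gene 110536425) of the same product name averaged 2.58 FPKM in yellow mutant skin and 2.91 FPKM in wild-type skin.

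The gene with the highest FPKM among the 25 higher genes with the smallest p has an unknown role in fish. si:dkey-251i10.2 (gene 110510096), a Reeler domain-containing protein, had 352, 668 and 495 FPKM in yellow mutant skin, against 101, 102 and 127 FPKM in wild-type skin (log2 difference 2.15, adjusted p = 0.059). Genes of signalling and vesicle traffic were also among the smallest p-values. npy (gene 100135894), the precursor of neuropeptide Y, had 4.79, 3.95 and 4.25 FPKM in yellow mutant skin, against 0.984, 1.57 and 1.63 FPKM in wild-type skin (adjusted p = 0.0832). tspan36 (gene 110525244), a tetraspanin known from zebrafish pigment cells, had 35.8, 28.5 and 48.1 FPKM in yellow mutant skin, against 11.9, 11.3 and 12.8 FPKM in wild-type skin (adjusted p = 0.0846). A second tspan36 entry (gene 110535696) averaged 16.4 FPKM in yellow mutant skin and 14.5 FPKM in wild-type skin, and overlapped between genotypes. CISH (gene 110528417), a feedback inhibitor of cytokine receptors, had 3.07, 2.02 and 2.99 FPKM in yellow mutant skin, against 0.463, 0.605 and 0.276 FPKM in wild-type skin (adjusted p = 0.0751). Over these 25 higher genes the log2 differences ran from 1.15 for jade3 (gene 110520928) to 3.16 for cyb561a3. A filament protein of neurons, plasticin (prph, gene 110494199), averaged 5.25 ± 2.15 FPKM in yellow mutant skin and 0.415 ± 0.0913 FPKM in wild-type skin (SD, n = 3 each, adjusted p = 0.0513). A second prph entry (gene 110528225) averaged 0.651 FPKM in yellow mutant skin and 0.411 FPKM in wild-type skin. It passed the filter only through the yellow mutant libraries. Of 51 Schwann and nerve genes 35 were lower, with a median log2 difference of -0.12 (-0.15 to -0.02 with 1 library left out). At an unadjusted p under 0.05 there were 4 lower members and 1 higher, gene 110494199. Over all genes tested the shares were 2.59% lower and 3.41% higher.

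On the lower side no gene passed, and NFATC1 came nearest. NFATC1 (gene 110518416), a transcription factor that calcineurin activates, had 9.39, 9.33 and 7.09 FPKM in yellow mutant skin, against 22.7, 23.5 and 25.6 FPKM in wild-type skin. The groups were far apart, with a log2 difference of -1.39 (standard error 0.16, adjusted p = 0.0551). Its tested copies, genes 110496069 and 110489695, had log2 differences of -0.32 and -0.22 (unadjusted p = 0.0507 and 0.196). Of 34 NFAT and calcineurin genes 14 were higher, with a median of -0.02 (-0.05 to 0.02 with 1 library left out). als2a (gene 110501974), a guanine nucleotide exchange factor, had 2.60, 2.24 and 2.25 FPKM in yellow mutant skin, against 6.79, 11.8 and 7.03 FPKM in wild-type skin (adjusted p = 0.102). Ccnt2 (gene 110501869), cyclin T2, a partner of the kinase that releases paused RNA polymerase, had 1.29, 2.35 and 1.93 FPKM in yellow mutant skin, against 6.44, 17.5 and 13.6 FPKM in wild-type skin (adjusted p = 0.16). Ccnt2 had the most negative log2 difference of the 25 lower genes chosen by the same rule as the 25 higher genes, at -2.16. Its 3 other tested copies lay between -0.24 and 0.18.

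Further genes with a small p on the lower side were cd209, ACKR3 and marveld2a. cd209 (gene 100136662), a lectin of macrophages and dendritic cells, had 9.10, 7.44 and 6.94 FPKM in yellow mutant skin, against 18.2, 16.5 and 16.8 FPKM in wild-type skin (adjusted p = 0.102). ACKR3 (gene 118941094), a scavenging receptor for a chemokine, had 6.19, 5.65 and 6.73 FPKM in yellow mutant skin, against 10.8, 10.9 and 10.03 FPKM in wild-type skin (adjusted p = 0.26). marveld2a (gene 110523471), a protein of tight junctions at the corners between cells, had 11.5, 7.61 and 11.63 FPKM in yellow mutant skin, against 19.4, 23.04 and 28.2 FPKM in wild-type skin (adjusted p = 0.26). None of these overlapped between genotypes, which the rule for choosing them required. Other macrophage and granulocyte genes did not lean the same way, with 46 of 70 higher and a median log2 difference of 0.11 (0.07 to 0.16 with 1 library left out). A second CD209 entry (gene 110489499) had 22.7, 23.7 and 24.9 FPKM in yellow mutant skin, against 23.1, 32.3 and 28.0 FPKM in wild-type skin, and overlapped between genotypes. The entry Cd209d (gene 118936340) passed the filter only through the yellow mutant libraries and so had to be higher in them. A second ACKR3 entry (gene 118965241) was also lower in every yellow mutant library, at 4.95, 2.58 and 3.28 FPKM, against 6.13, 7.76 and 6.94 FPKM in wild-type skin (unadjusted p = 0.00368).

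Only vtg3 was near 0 in a whole group among the genes tested. vtg3 (gene 110521946), a vitellogenin, the family of yolk protein precursors, had 0.025, 0.044 and 0.016 FPKM in yellow mutant skin, against 0.564, 2.07 and 1.80 FPKM in wild-type skin (log2 difference -1.21, adjusted p = 0.337). It was the 1 gene with all libraries of a genotype at 0.5 FPKM or more and all of the other under 0.1 FPKM. As the filter asks for 3 libraries, 66 genes passed it through the yellow mutant libraries alone and 52 through the wild-type libraries alone. Such genes had to differ. vtg3 is among them, and so is pnp6 (gene 110520537), a purine nucleoside phosphorylase with 1.91, 1.63 and 1.601 FPKM in yellow mutant skin, against 0.351, 0.037 and 0.194 FPKM in wild-type skin. At the edge of the filter, 387 genes had a third-highest library between 0.5 and 0.55 FPKM and 440 between 0.45 and 0.5 FPKM.

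**Figure D3:**
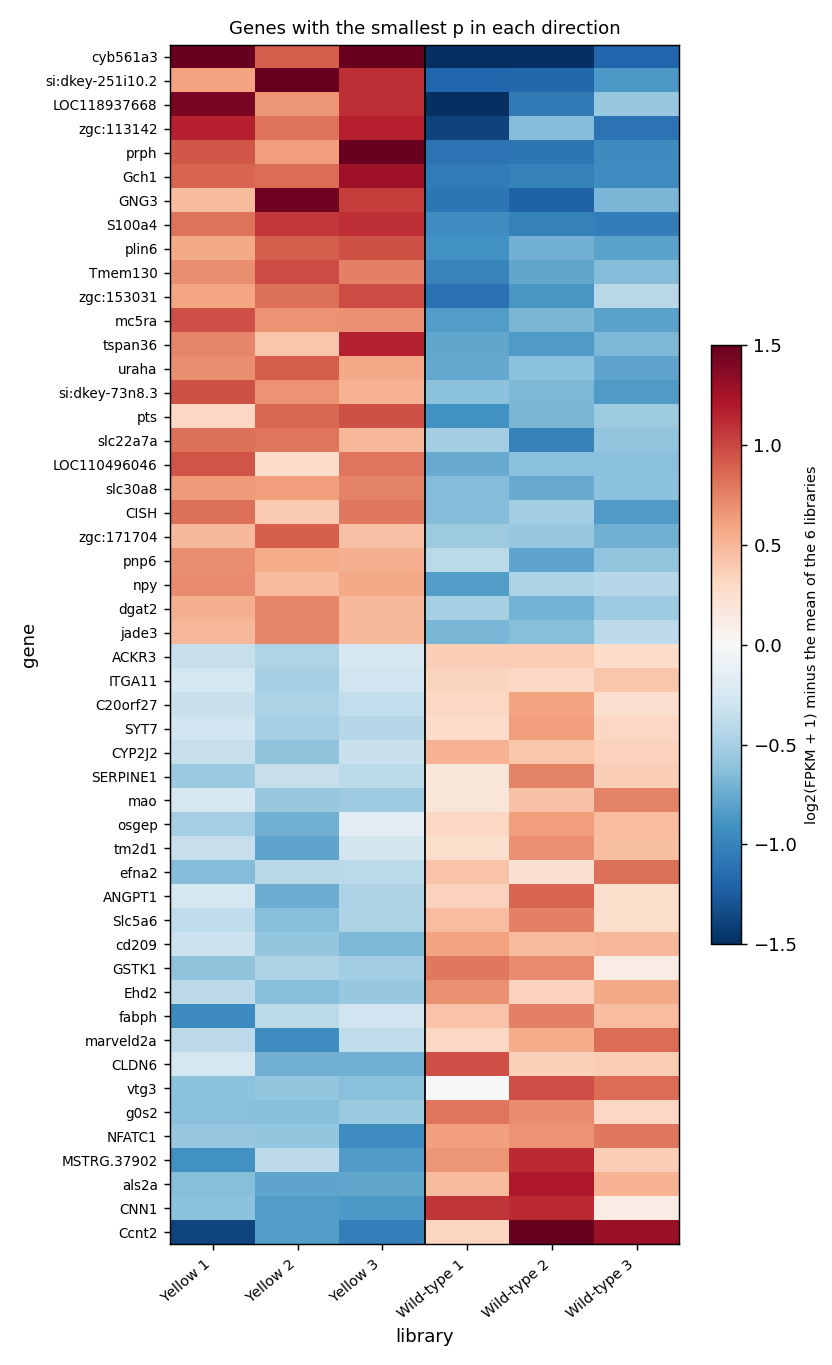
Rows are the 25 genes per direction with the smallest p that were separated between genotypes, averaged 1 FPKM or more in the genotype where they are higher, and carry an informative name, columns are the 6 libraries (yellow mutant left, wild-type right), and colour is log2(FPKM + 1) minus the mean of the 6 libraries, with the scale ending at 1.5. Within a genotype the shades differ most for Ccnt2, cyb561a3 and LOC118937668, and least for slc30a8 and ACKR3.

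Gene lists put the single genes in context. Each is described by the share of its tested members that were higher and by its median log2 difference, beside 53.0% and 0.014 over all genes tested. The marker list of xanthophores, the yellow pigment cells as known from zebrafish, had 18 of 22 genes higher and a median of 0.34, and 11 members had no overlap, all of them higher, where 6.07% of all genes tested were higher and 4.92% lower with no overlap. The median was 0.19 with no filter on low values and 0.58 with a filter of 5 FPKM. No member passed over all genes. AKR1B1 (gene 110490237), an aldose reductase, had 11.2, 13.3 and 15.3 FPKM in yellow mutant skin, against 4.88, 2.35 and 1.57 FPKM in wild-type skin. The transcription factor gene pax7b (gene 100884157), needed for xanthophores in zebrafish, had 7.52, 13.4 and 8.34 FPKM in yellow mutant skin, against 2.997, 3.75 and 3.12 FPKM in wild-type skin. Its relative pax7a (gene 100884158) had 4.32, 8.30 and 5.97 FPKM in yellow mutant skin, against 1.87, 2.93 and 2.86 FPKM in wild-type skin. All 3 were higher in every yellow mutant library (adjusted p from 0.155 to 0.465). The median of the list stayed between 0.31 and 0.38 when 1 library was left out. In such tissue samples more cells of a type and more RNA per cell cannot be told apart.

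Among pteridine enzymes Gch1, pts and Pcbd2 were the 3 of 13 with an unadjusted p under 0.05, all higher, where 3.41% of all genes tested were. With no overlap 4 of 13 were higher, where 6.07% of all genes tested were. The median was 0.03, from -0.003 without yellow mutant replicate 3 to 0.15 without yellow mutant replicate 2, and 0.09 when wild-type replicate 1 was left out, 0.05 when wild-type replicate 2 was, and 0.29 with a filter of 5 FPKM. Their FPKM summed to 199 to 244 in yellow mutant skin and 144 to 170 in wild-type skin. Gch1 is part of that sum, at 49.1 to 66.2 FPKM in yellow mutant skin and 12.5 to 13.6 FPKM in wild-type skin. Without that gene the sums of the genotypes overlapped. Melanin and melanosome genes leaned higher. Of 7 melanin enzyme entries 6 were higher, with a median of 0.49 (0.34 to 0.69 with 1 library left out). A DCT entry among them passed the filter only through the yellow mutant libraries. The list's FPKM, untested entries included, summed to 409, 256 and 372 in yellow mutant skin, against 272, 261 and 270 in wild-type skin. By this sum yellow mutant replicate 2 was below every wild-type library. The gene tyr (gene 100135828), tyrosinase, had 26.9, 15.2 and 21.2 FPKM in yellow mutant skin, against 8.38, 8.82 and 10.3 FPKM in wild-type skin (adjusted p = 0.301). Of 64 genes for melanosome structure and transport 49 were higher (76.6%, median 0.19), and 20 had an unadjusted p under 0.05, all higher, against 3.41% over all genes tested. Rab38 (gene 110534809), a small GTPase that brings enzymes to melanosomes, had 16.4, 19.0 and 13.7 FPKM in yellow mutant skin, against 7.42, 8.11 and 7.59 FPKM in wild-type skin. Myo5a (gene 110511859), a motor that carries melanosomes, had 10.22, 11 and 10.65 FPKM in yellow mutant skin, against 4.78, 6.97 and 4.18 FPKM in wild-type skin. Neither gene overlapped between genotypes and neither passed. Of 38 regulators of melanophore fate 30 were higher (median 0.19, and 0.09 without wild-type replicate 1), led by mitfa (gene 110494592), with 5.05, 4.68 and 5.52 FPKM in yellow mutant skin, against 1.77, 2.51 and 2.59 FPKM in wild-type skin.

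The iridophore side of the pigment system showed less. Of 61 genes for purine synthesis, urate and iridophores 38 were higher, with a median of 0.07, which was 0.03 without wild-type replicate 1, wild-type replicate 2 or yellow mutant replicate 2. Of the 61, 4 were higher and 0 lower at an unadjusted p under 0.05. Over all genes tested the shares were 3.41% higher and 2.59% lower. The 4 were uraha, ppat, pfas and pnp6, of which pnp6 passed the filter only through the yellow mutant libraries. ppat (gene 110521685), the first enzyme of purine synthesis, had 8.11, 5.91 and 6.42 FPKM in yellow mutant skin, against 4.96, 4.38 and 4.50 FPKM in wild-type skin. The 4 iridophore markers summed to 91.1 to 106 FPKM in yellow mutant skin and 91.0 to 104 FPKM in wild-type skin, so their ranges overlapped. Melanophore markers summed to 434 to 618 FPKM in yellow mutant skin and 359 to 384 FPKM in wild-type skin, and xanthophore markers to 104 to 117 FPKM in yellow mutant skin and 47.2 to 50.5 FPKM in wild-type skin. These 2 sums did not overlap, and the xanthophore sum includes Gch1. Carotenoid and retinoid genes had a median of -0.03 over 85 genes, between -0.08 without yellow mutant replicate 1 and 0.005 without yellow mutant replicate 2. At an unadjusted p under 0.05 there were 10 higher and 7 lower of 85, where 3.41% of all genes tested were higher and 2.59% lower. Of the 7 lower, 1 passed the filter only through the wild-type libraries.

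Endothelial and mural genes, which mark the lining and the muscle coat of vessels, were lower in 67 of 77 cases (median -0.27). The median was -0.20 without yellow mutant replicate 2 or wild-type replicate 2, and -0.31 without wild-type replicate 1. It was -0.39 without yellow mutant replicate 1 or wild-type replicate 3, and -0.18 with relative depth as a covariate. By library the genotypes overlapped, with yellow mutant replicate 1 at 0.07, above wild-type replicate 3 at -0.05 (median relative to each gene's mean). At an unadjusted p under 0.05 there were 18 lower and 2 higher members of 77, where 2.59% of all genes tested were lower and 3.41% higher, and none passed. The 5 mural markers summed to 255 to 287 FPKM in yellow mutant skin and 307 to 388 FPKM in wild-type skin, and the 5 endothelial markers to 30.3 to 50.3 FPKM in yellow mutant skin and 40.7 to 65.6 FPKM in wild-type skin. Ehd2 (gene 110508136), a protein of caveolae, had 8.08, 6.64 and 7.02 FPKM in yellow mutant skin, against 18.1, 14.1 and 16.7 FPKM in wild-type skin (adjusted p = 0.103). CNN1 (gene 110486482), calponin of smooth muscle, had 3.41, 2.79 and 2.71 FPKM in yellow mutant skin, against 13.2, 13.6 and 6.30 FPKM in wild-type skin (adjusted p = 0.235). Both were lower in every yellow mutant library. LYVE1 (gene 110506491), a receptor of lymphatic vessels, was on the other side, with 5.57, 6.91 and 4.01 FPKM in yellow mutant skin, against 2.90, 2.86 and 2.36 FPKM in wild-type skin (adjusted p = 0.471). ANGPT1 (gene 110507394), angiopoietin-1, a ligand that steadies vessels, had 1.41, 0.733 and 1.098 FPKM in yellow mutant skin, against 2.69, 4.29 and 2.48 FPKM in wild-type skin (adjusted p = 0.349).

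AP-1 and other early response genes, which cells switch on within minutes of a stimulus or of handling, were lower in 50 of 61 cases (median -0.33). All 14 members with an unadjusted p under 0.05 were lower, where 2.59% of all genes tested were, and none passed. Of these 14, 1 passed the filter only through the wild-type libraries. The median was -0.50 with a pseudocount of 0.1 FPKM or with relative depth as a covariate, and -0.54 with a filter of 5 FPKM. JUND (gene 110530134), an AP-1 subunit, had 6.54, 7.17 and 7.06 FPKM in yellow mutant skin, against 11.98, 18.0 and 11.5 FPKM in wild-type skin. A second JUND copy (gene 110508902) had 10.04, 10.7 and 12.1 FPKM in yellow mutant skin, against 17.5, 27.2 and 18.9 FPKM in wild-type skin. egr1 (gene 110537802), a zinc finger factor, had 1.503, 3.75 and 2.08 FPKM in yellow mutant skin, against 5.41, 8.57 and 5.997 FPKM in wild-type skin. These 3 genes did not overlap between genotypes (adjusted p from 0.386 to 0.44). By library, the median over the list of log2(FPKM + 1) relative to each gene's mean was lowest in yellow mutant replicate 1, at -0.40, and highest in wild-type replicate 2, at 0.43, while yellow mutant replicate 3 and wild-type replicate 1 were both near -0.10. The median of the list was -0.23 to -0.48 when 1 library was left out. Without wild-type replicate 1 it was -0.48.

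Lipid droplet and triglyceride genes stood on both sides, with 10 higher and 12 lower members of 112 at an unadjusted p under 0.05. Over all genes tested the shares were 3.41% higher and 2.59% lower. In the list plin6 was the 1 member that passed. The median was -0.02, between -0.07 without yellow mutant replicate 1 and 0.03 without yellow mutant replicate 2, and -0.42 with a filter of 5 FPKM. dgat2 (gene 110533663), which completes triglyceride synthesis, had 11.01, 12.8 and 10.6 FPKM in yellow mutant skin, against 4.91, 4.11 and 4.70 FPKM in wild-type skin (adjusted p = 0.059). The second dgat2 copy (gene 110537459) had 37.8, 19.4 and 23.97 FPKM in yellow mutant skin, against 49.3, 69.3 and 32.7 FPKM in wild-type skin (adjusted p = 0.781). The copies thus stood on opposite sides, and the second overlapped between genotypes. bscl2 (gene 110534923), seipin, which shapes new lipid droplets, had 1.71, 3.11 and 6.83 FPKM in yellow mutant skin, against 0.027, 0.199 and 0.030 FPKM in wild-type skin (adjusted p = 0.259). It passed the filter only through the yellow mutant libraries and so had to differ. The neighbour of bscl2 in the RefSeq gene order, GNG3 (gene 110533984), a G protein subunit, was also higher. GNG3 had 2.83, 6.57 and 4.65 FPKM in yellow mutant skin, against 0.292, 0.186 and 0.711 FPKM in wild-type skin (adjusted p = 0.0832).

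Genes that fat cells use stood on both sides. fabp4b (gene 110505566), a fatty acid-binding protein, had 2.35, 7.05 and 7.69 FPKM in yellow mutant skin, against 0.410, 0.348 and 0.636 FPKM in wild-type skin (adjusted p = 0.231). Pnpla2 (gene 110490314), a triglyceride lipase, had 3.40, 2.69 and 3.63 FPKM in yellow mutant skin, against 1.03, 0.781 and 1.42 FPKM in wild-type skin (adjusted p = 0.158). Both were higher in every yellow mutant library. g0s2 (gene 110532623), an inhibitor of triglyceride breakdown, had 50.5, 49.99 and 52.7 FPKM in yellow mutant skin, against 138, 129 and 97.6 FPKM in wild-type skin (adjusted p = 0.155). plin1 (gene 110520891), the perilipin of fat cells, had 82.3, 31.4 and 49.9 FPKM in yellow mutant skin, against 102, 133.9 and 73.9 FPKM in wild-type skin (adjusted p = 0.778). cidec (gene 110527935), which fuses lipid droplets, had 23.9, 7.16 and 14.1 FPKM in yellow mutant skin, against 32.9, 41.2 and 22.7 FPKM in wild-type skin. plin1 and cidec overlapped between genotypes, and both were lowest in yellow mutant replicate 2. fabph (gene 100305201), a heart-type fatty acid-binding protein, had 124.4, 183 and 195 FPKM in yellow mutant skin, against 325, 407 and 332 FPKM in wild-type skin (adjusted p = 0.333). All 4 G0S2 entries were lower, summing to 263 ± 76.5 FPKM in yellow mutant skin and 536 ± 119 FPKM in wild-type skin (SD, n = 3 each). So were all 4 heart-type fatty acid-binding protein entries, at 774 ± 160 and 1314 ± 216 FPKM. Both sets were chosen after the values were seen, and none of their members passed.

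**Figure D4:**
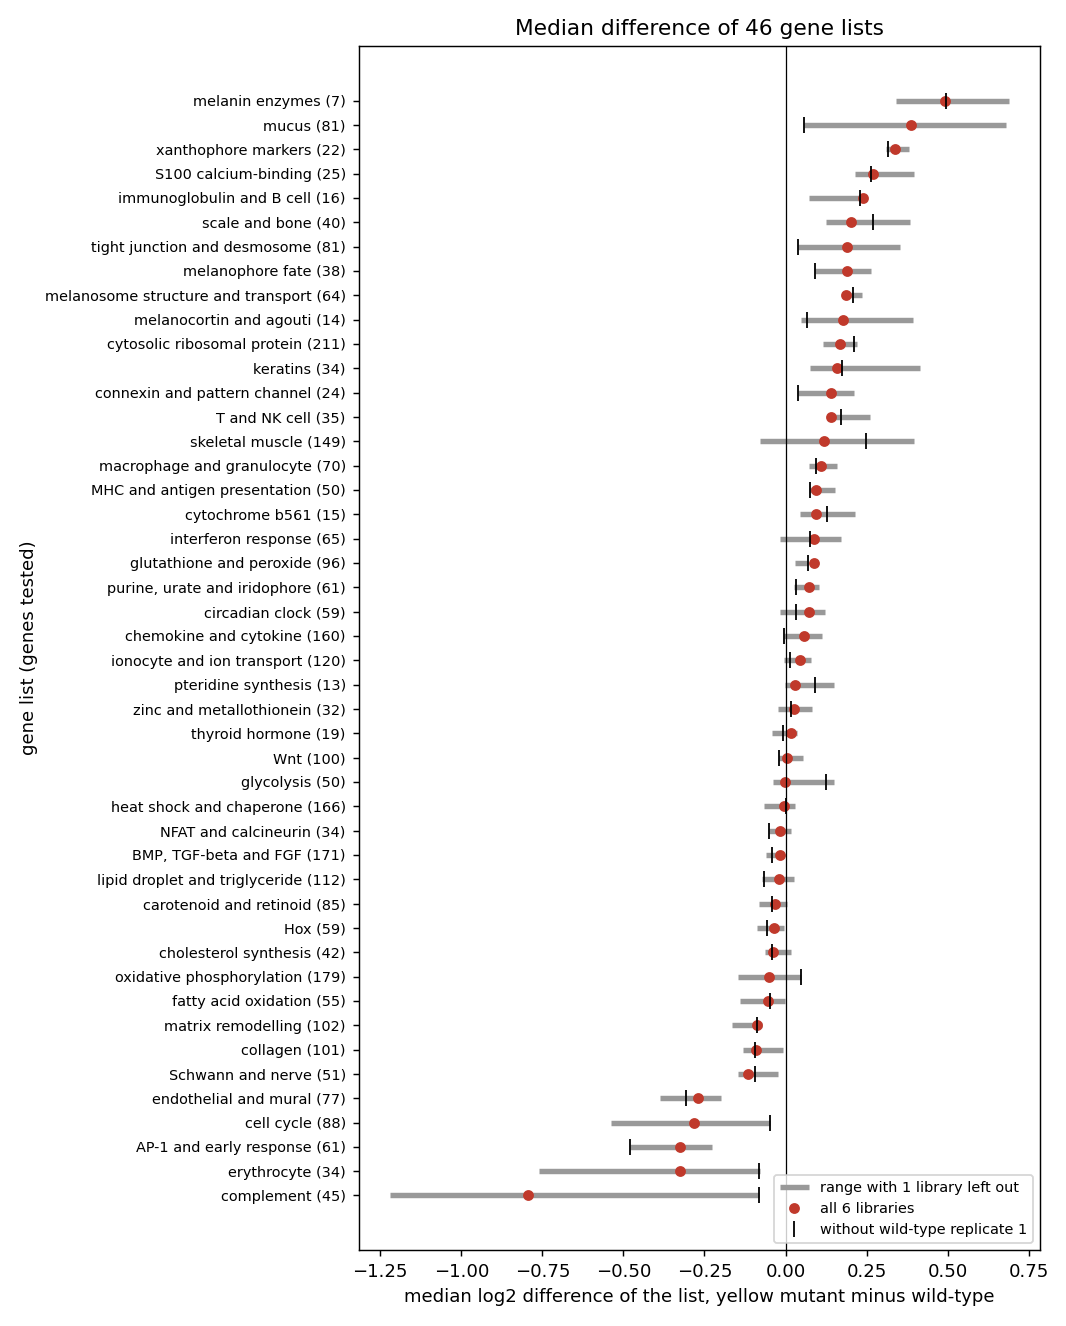
Points give the median log2 difference of each of 46 gene lists (x axis, yellow mutant minus wild-type, number of genes tested in brackets), grey bars the range of that median when 1 library is left out, and ticks the median without wild-type replicate 1. The bars of the xanthophore and melanosome lists are short, at 0.31 to 0.38 and 0.17 to 0.24, while those of the complement, cell cycle, erythrocyte and mucus lists reach close to 0.

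Several lists that looked lower or higher rested on wild-type replicate 1 or on a few libraries. Complement genes had a median of -0.79 over 45 genes, of -1.22 without wild-type replicate 2 and of -0.08 without wild-type replicate 1, where they summed to 1241 FPKM, against 666 to 711 FPKM in yellow mutant skin and 739 to 772 FPKM in the other wild-type libraries. Cell cycle genes were lower in 82 of 88 cases with a median of -0.28, which was -0.05 without that library. Without yellow mutant replicate 3 the cell cycle median was -0.14, and without yellow mutant replicate 1 or wild-type replicate 3 it was -0.50 and -0.54. Erythrocyte genes had a median of -0.33, which was -0.08 without wild-type replicate 1 or wild-type replicate 2, -0.22 without yellow mutant replicate 3 and -0.76 without wild-type replicate 3. Mucus genes were higher in 76 of 81 cases with a median of 0.39, which was 0.06 without wild-type replicate 1, 0.24 without yellow mutant replicate 2, 0.60 without yellow mutant replicate 1 and 0.68 without wild-type replicate 3, and their sum was 1586 FPKM in wild-type replicate 1, against 4880 to 6662 FPKM in yellow mutant skin and 4243 to 5502 FPKM in the other wild-type libraries. Genes of tight junctions and desmosomes had a median of 0.19, which was 0.04 without wild-type replicate 1, 0.10 without yellow mutant replicate 3 and 0.35 without wild-type replicate 3. None of these lists had a member past the threshold.

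Skeletal muscle genes followed single libraries of both genotypes. They summed to 8541, 13665 and 5385 FPKM in yellow mutant skin, against 10875, 4154 and 10859 FPKM in wild-type skin, so no order by genotype was present. Of 149 muscle genes 97 were higher, with a median of 0.12 (-0.08 to 0.40 with 1 library left out). At an unadjusted p under 0.05 there were 7 higher and 9 lower, where 3.41% of all genes tested were higher and 2.59% lower. TNNT2 (gene 110500013), a heart-type troponin T, had 3.25, 1.67 and 0.316 FPKM in yellow mutant skin, against 9.14, 3.43 and 9.72 FPKM in wild-type skin (adjusted p = 0.733). Cytosolic ribosomal protein genes were higher in 186 of 211 cases by a small margin, with a median of 0.17, and of 0.05 after quantile normalization. S100 genes were higher in 20 of 25 cases (median 0.27). Scale and bone genes were higher in 29 of 40 cases with a median of 0.20, which was 0.38 without yellow mutant replicate 1, 0.13 without yellow mutant replicate 2 and 0.12 without yellow mutant replicate 3, and yellow mutant replicate 1 was below 2 wild-type libraries in this list. T and NK cell genes were higher in 30 of 35 cases with a median of 0.14, which was 0.26 without yellow mutant replicate 3. Lists for Hox, thyroid hormone, Wnt and growth factor signalling had medians from -0.03 to 0.02, and none of their members passed.

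**Figure D5:**
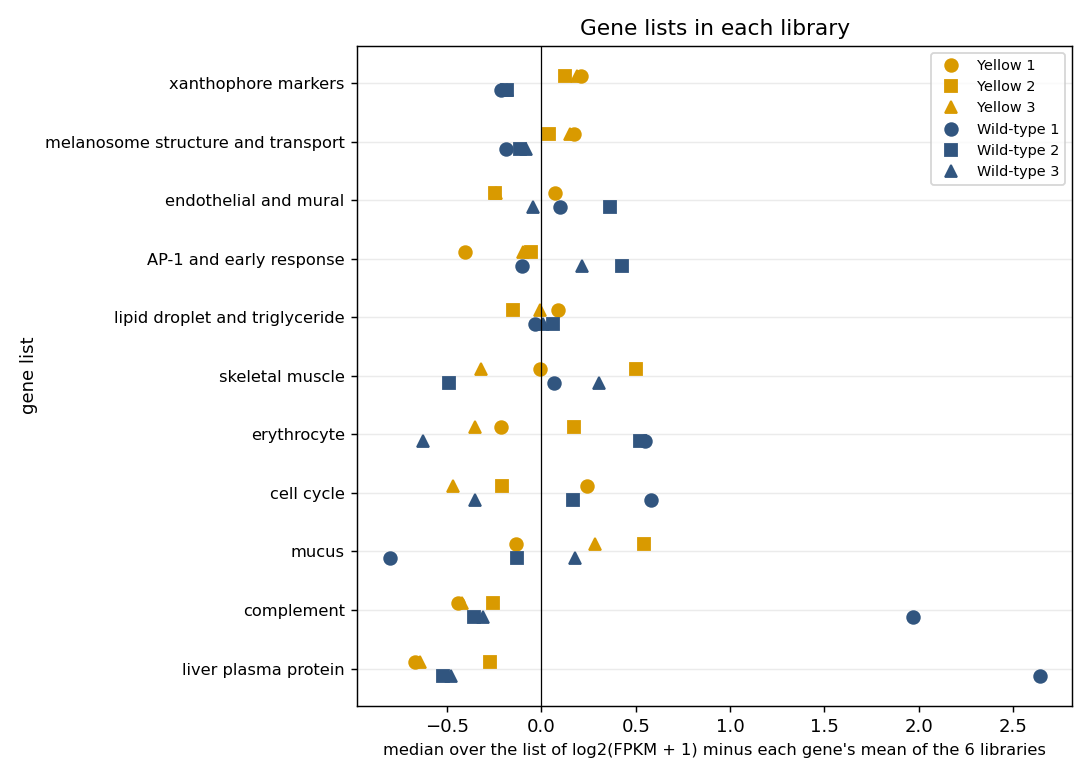
For 11 gene lists (rows) each symbol gives a library's median, over the list's genes, of log2(FPKM + 1) minus the gene's mean of the 6 libraries (x axis), with yellow mutant in yellow above wild-type in blue. Xanthophore and melanosome lists separate the genotypes, complement and liver plasma protein lists separate wild-type replicate 1 from the 5 other libraries, and skeletal muscle and erythrocyte lists scatter within both genotypes.

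The authors' deposited table makes more calls, and whether its FDR rests on the FPKM or on counts is not stated. At an FDR under 0.05 the authors' deposited table calls 138 of 42290 entries, 97 higher (0.229%) and 41 lower (0.0969%) in yellow mutant skin. In 135 of them the 6 libraries did not overlap between genotypes, where 6.07% of all genes tested were higher and 4.92% lower with no overlap. All 9 genes called here are among the 138 entries, and 131 of the 138 have an unadjusted limma p under 0.05. The 138 entries were picked from these same 6 libraries, so neither count is independent support. In the authors' deposited table cyb561a3 has the smallest FDR, 7.7e-26, and vtg3, which did not pass here, has 4.28e-09.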

How the data were processed

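RNA-Seq libraries of dorsal skin from 3 yellow mutant and 3 wild-type samples, grouped by the genotype label, were analysed from a table of FPKM that the authors deposited, with their own log2 fold change and FDR (an adjusted p-value) per entry, per the file headers. TopHat2 2.1.1 and Bowtie2 2.2.8 are named in the submitters' processing notes. For the counting tool, the genome build and the authors' FDR test no statement was found (not given in the sources used here), and no coordinates are printed. Without counts, no count test was run and the absolute depth is unknown, so low values carry unknown counting error.

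Entries with at least 0.5 FPKM in at least 3 of 6 libraries were tested on log2(FPKM + 1) with limma 3.58.1 in R 4.3.3 (moderated with trend and robust, two-sided, Benjamini-Hochberg adjustment over all 27268 genes, threshold 0.05). A fold change on this scale understates the change of low genes. The exact permutation test of 3 against 3 cannot go below 0.1 and was not used. The fit was tested on simulated data of 27268 genes, where 37% of shifts of 1 and 90% of shifts of 2 on the log2 scale were recovered with 5 false calls. The shifts were placed in 100 genes per size, and only in genes with a mean log2(FPKM + 1) above 2. Where fewer genes differ, the adjustment is stricter and fewer shifts are recovered, which was not simulated. The spread was drawn for each gene alone, without effects shared across a library. Recovery in lower genes, or with a library that stands apart, was thus not simulated. Symbols and product names are those the authors deposited. All 41894 entries with an NCBI identifier matched RefSeq (rainbow trout), which gave the gene order.

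Named genes are all called genes with their copies, the 25 per direction with the smallest p among those with no overlap, at least 1 FPKM and an informative name, genes on in one genotype and near 0 in the other, and the leading members of 46 gene lists. Further genes (alb1, pax7a, pax7b, mitfa, tyr, Rab38, Myo5a, ppat, JUND, egr1, bscl2, cidec, plin1, TNNT2, LYVE1, socs2, AKR1B1, fabp4b, Pnpla2 and CD209) were picked after their values were seen. Members and lists were chosen with earlier results of these data known. Small RNA libraries of the series were not analysed here. Alternatives changed the pseudocount, filter, scaling, moderation, depth term, replicate block or the libraries used.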

Additional observations from a re-analysis of the deposited data

How the results depend on the processing

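The count of 9 higher genes was 9 with a pseudocount of 0.1 FPKM, with no filter beyond a value above 0 in 3 libraries, with median-of-ratios scaling and with quantile normalization, each with 0 lower genes. Of these, 8 were among the 9 with the pseudocount of 0.1 FPKM. It was 12 with a filter of 5 FPKM, 6 of them among the 9, and 12 without trend and robust, with all 9 among them, and 1 lower gene in each. It was 0 with relative depth as a covariate, where 1228 higher and 813 lower genes had an unadjusted p under 0.05. With 1 library left out the count ranged from 0 to 10 higher genes and from 0 to 4 lower genes, and the fewer samples alone reduce what can pass. Without yellow mutant replicate 3, wild-type replicate 1 or wild-type replicate 3 no gene passed.

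With the replicate number as a block the count was 0 higher and 0 lower genes, with 995 higher and 800 lower at an unadjusted p under 0.05. Same-numbered libraries had correlations of their deviations from the genotype mean of 0.12, -0.21 and 0.16, and differently numbered ones of -0.28 to 0.17. With 3 libraries per genotype, whose deviations sum to 0, these values cannot decide whether the numbers pair the samples. Why the count fell to 0 was not tested.

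Of 67 named genes that were followed across the alternatives, 3 changed direction. Some other named entries, the second tspan36 and prph entries among them, were not among the 67. dhfr (gene 110536425) had a log2 difference of 0.157 with relative depth as a covariate and -0.413 to 0.308 with 1 library left out, where it was positive without yellow mutant replicate 3 or wild-type replicate 1. gch1 (gene 110497538), which is at about the same level in both genotypes, had -0.0103 with median-of-ratios scaling, -0.0112 with quantile normalization, -0.0349 with relative depth as a covariate and -0.0398 to 0.0506 with 1 library left out. cish (gene 100329195) had -0.021 to 0.132 with 1 library left out, and was negative only without yellow mutant replicate 3. Medians of the gene lists moved by more than the spread between libraries in 56 cases and did not in 644. With 3 samples per genotype and 37% of simulated log2 shifts of 1 recovered, differences of that size can be missed, and FPKM carry no counts from which to bound low values.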

Other observations

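Of the feedback inhibitors of cytokine signalling, a list chosen after the values were seen, some copies stood beside the CISH entry described above and others did not. A second CISH entry (gene 110494652) had 3.43, 1.56 and 2.21 FPKM in yellow mutant skin, against 0.477, 0.610 and 0.147 FPKM in wild-type skin, with no overlap. socs2 (gene 110500152), a suppressor of growth hormone signalling, had 2.31, 1.61 and 2.80 FPKM in yellow mutant skin, against 0.828, 0.770 and 0.363 FPKM in wild-type skin. The entry cish (gene 100329195), averaged 2.44 FPKM in yellow mutant skin and 2.30 FPKM in wild-type skin, and overlapped. Across the list 15 of 22 genes were higher, with a median log2 difference of 0.07 (0.12 without wild-type replicate 1), and none passed. At an unadjusted p under 0.05 there were 6 higher and 2 lower, where 3.41% of all genes tested were higher and 2.59% lower. Of the 6 higher, a SOCS2 entry (gene 110492178) passed the filter only through the yellow mutant libraries and so had to differ. The FPKM of the list summed to 69.3 ± 8.47 in yellow mutant skin and 77.8 ± 13.8 in wild-type skin (SD, n = 3 each).

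Copies that share a symbol were compared in pairs. Over all genes tested, 3.41% were higher and 2.59% lower at an unadjusted p under 0.05. Of 4989 symbols with exactly 2 tested entries, 501 had at least 1 entry under that threshold and 41 had both. Of these 41 pairs 17 were both higher, 19 both lower and 5 opposite. Over all pairs 59.3% had the same sign, and Pearson's r of the log2 differences across pairs was 0.36, as a description, since copies share libraries and may share reads. In the opposite pair of osgep, which encodes an enzyme of tRNA modification, gene 110490645 had 2.33, 1.88 and 3.23 FPKM in yellow mutant skin, against 4.92, 6.32 and 5.55 FPKM in wild-type skin. The other osgep entry (gene 110490647) had 4.93, 5.35 and 5.61 FPKM in yellow mutant skin, against 2.87, 2.13 and 3.30 FPKM in wild-type skin. Summed over both entries, osgep was at 7.77 ± 0.917 FPKM in yellow mutant skin and 8.36 ± 0.537 FPKM in wild-type skin (SD, n = 3 each). No source used here says how reads were split between the entries.

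The authors' deposited table calls 6 entries that were below the level tested here. Among them PRKACA (gene 118936519), a catalytic subunit of protein kinase A, is listed at 0 in all 3 yellow mutant libraries, against 1.51, 0.848 and 0.173 FPKM in wild-type skin. In 30 groups, 104 tested entries held the same 6 values as another entry, and none of the 9 genes called is among them.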
